A study of Solanum lycopersicum with 12 samples.

Results

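Between color break and maturity the fruit of a red and of a yellow tomato did not change their transcripts to the same extent, and the difference between those stage changes is described here gene by gene. The value of each gene is its change from color break to maturity in red fruit minus its change from color break to maturity in yellow fruit, on the log2 scale, so that a negative value means that the gene went down more, or up less, in red fruit. All 15974 genes with at least 1 FPKM (fragments scaled by transcript length and by library size) in at least 3 of the 12 libraries were tested, of 24215 genes in the table. RNA sequencing was done on fruit RNA. The yellow line is tomato No. 19. The red line is tomato No. 20. Fruit of each was taken at color break (anthesis plus 40 days) and at maturity (anthesis plus 55 days), with 3 libraries in each of the 4 groups. The 2 lines are different tomatoes and no treatment or transgene is named for either. Age after anthesis and ripening stage are the same contrast in these samples. The labels do not say whether the 3 libraries of a group came from separate plants or whether seeds were removed, so p-values measure the spread between these libraries.

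Tomato is a climacteric fruit. At color break the hormone ethylene, made by ACC synthases and ACC oxidases, drives a burst of ripening transcripts under MADS-box and NAC transcription factors: carotenoid synthesis colors the flesh, chloroplasts turn into chromoplasts and lose their photosynthetic proteins, and wall-degrading enzymes soften the tissue. Flavonoids, made from phenylalanine through chalcone synthase, accumulate mainly in the fruit skin. Seeds mature inside the fruit and store oil and protein.

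Library totals ran from 50963462 to 60854667 counts. Transcripts that mark ripening tomato fruit were present in each group: E8, a ripening gene of the ethylene response, had 5526, 5494 and 5451 FPKM at yellow color break, 4907, 4887 and 4909 at yellow maturity, 4597, 4529 and 4471 at red color break and 3427, 3671 and 3336 at red maturity. Replicate 1 of red maturity stood apart from the other 2 libraries of its group. Its chi-square per degree of freedom against them was 29.94 and 28.28, against 11.23 between those 2 and 5.276 to 7.846 between replicates of the other groups. On the first principal component of log2 depth-scaled counts its score was 77.55, against 130.3 and 129.5 for the other 2 red maturity libraries and 1.565 to 2.725 at yellow maturity. Counts are therefore given with and without this library. Where the values of 2 stages are joined by "then", color break comes first.

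More genes fell in red fruit than in yellow fruit on the way to maturity. A gene was called when its adjusted p was under 0.05 and the size of its log2 value was at least 1. In the difference of stage changes, 1954 genes were called, 12.2% of those tested: 480 were higher (3.00%) and 1474 were lower (9.23%). A symbol or description was given for 3714 of the tested genes and for 426 of the called ones. The median over all tested genes was -0.003063, and the interquartile range ran from -0.359 to 0.2651. In red fruit itself 1843 genes fell (11.5%) and 628 rose (3.93%) from color break to maturity, against 780 that fell (4.88%) and 235 that rose (1.47%) in yellow fruit. Without replicate 1 of red maturity, 490 genes were called higher and 1595 lower, and 452 and 1429 of these were also called with all libraries. Higher calls were 24.6% of all calls, and 24.4% and 25.2% with RLE and upper-quartile scaling in the same edgeR test. With limma on log2(FPKM + 1) in place of edgeR the share was 31.4% and the median of all genes 0.116. With limma on FPKM that were also rescaled to a fixed total per library, 599 genes were called higher and 947 lower, a share of 38.7%, and the median of all genes was 0.196.

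Of the 1954 called genes, 1339 (68.5%) showed a larger change in red fruit with a lower value, with a median stage change of -2.252 in red and -0.4313 in yellow fruit. Another 345 had a larger change in red fruit with a higher value, with medians of 1.511 in red and -0.05409 in yellow. In 101 genes red fruit had the smaller change and the higher value, with medians of 0.3466 in red and -1.106 in yellow, and in 99 genes it had the smaller change and the lower value, with medians of -0.3356 and 1.117. Opposite changes, called in both lines with different signs, were found in 70 genes, 36 of which fell in red and rose in yellow and 34 of which rose in red and fell in yellow. The pattern of 68 of these 70 was the same without replicate 1 of red maturity. A set of 323 genes had red stage changes of -5 or below. Of these, 287 also had a yellow stage change of -1 or below, and the median of all 323 was -2.19 in yellow. That 307 were called lower follows largely from the cutoff, because the red stage change is part of the difference. At red maturity 68 tested genes had 0 counts in all 3 libraries, and 167 more had 0 counts in replicates 2 and 3 and some in replicate 1.

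**Figure D1:**
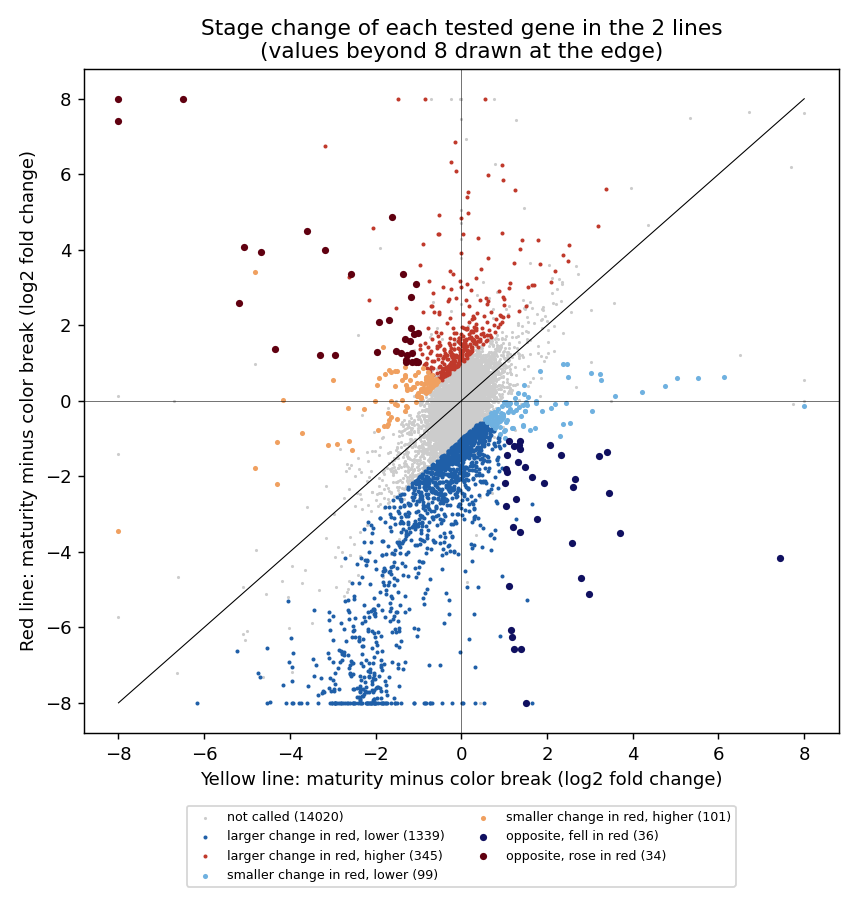
Stage change of each tested gene in yellow fruit (horizontal axis, log2 fold change of maturity over color break) and in red fruit (vertical axis, same unit), colored by pattern; the diagonal marks equal changes. The largest colored group lies below the diagonal, 1339 genes with a larger change in red fruit and a lower value, and the opposite genes lie at the upper left (34) and at the lower right (36).

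Of the flavonoid pathway 8 of 9 tested genes fell in red fruit (against 11.5% of all genes) and 1 rose in yellow fruit (against 1.47%). All 9 tested members of the list, of 11 in the table, were called lower (100% against 9.23% of all genes). The median difference was -1.816 against -0.003063 for all genes. The same 9 were called without replicate 1 of red maturity (median -1.828). The list runs from phenylalanine ammonia-lyase, which opens the phenylpropanoid pathway, to flavonol synthase. CHS2, one of 2 chalcone synthases that commit the pathway to flavonoids, had 185, 185 and 186 FPKM at red color break and 39.8, 41.5 and 37.7 FPKM at red maturity. In yellow fruit it had 1.52, 1.19 and 1.77 FPKM at color break and 1.73, 2.42 and 2.95 FPKM at maturity. No red library overlapped a yellow one, and the lowest red value was at maturity. The difference of stage changes was -3.00 ± 0.19 (SE, adjusted p = 2.88e-08).

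CHS1, the second chalcone synthase, was the one member with opposite called changes: it fell from 73.5 ± 2.2 to 18.1 ± 2.31 FPKM (SD, n = 3) in red fruit and rose from 0.525 ± 0.0733 to 1.09 ± 0.161 FPKM in yellow fruit, a difference of -3.19 ± 0.20 (SE, adjusted p = 2.39e-08). The yellow rise was thus at a level near 1 FPKM. Flavonol synthase FLS was the most abundant member, with 324, 320.1 and 312 FPKM at red color break and 89.9, 102 and 90.6 at red maturity, against 36.0, 36.1 and 36.9 at yellow color break and 25.2, 27.1 and 27.0 at yellow maturity, and its difference was -1.44 ± 0.06 (SE, adjusted p = 7.24e-10). F3H, flavanone 3-hydroxylase, differed by -2.02 ± 0.15 (SE, adjusted p = 1.43e-07), and PAL5, a phenylalanine ammonia-lyase, by -1.82 ± 0.05 (SE, adjusted p = 2.24e-11). CHI, chalcone isomerase, had no higher color-break level in red fruit, 2.19 ± 0.161 FPKM against 2.33 ± 0.120 in yellow, and differed by -2.01 ± 0.27 (SE, adjusted p = 3.37e-05). MYB12, the transcription factor that activates the flavonoid genes, had 10.2 ± 0.291 FPKM at red color break and 3.04 ± 0.434 FPKM at red maturity, and under 1 FPKM in every yellow library. Its difference was -1.31 ± 0.28 (SE, adjusted p = 0.00162).

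Bulk fruit RNA cannot separate fewer cells of a type from less RNA per cell. The 4 epidermis markers, which include CHS1 and MYB12 themselves, summed to 92.6 to 97.9 FPKM at red color break and 31.1 to 37.5 at red maturity, and to 14.8 to 16.1 and 13.0 to 14.8 FPKM in yellow fruit. The other 2 of these markers are cuticle genes. CER6, a 3-ketoacyl-CoA synthase of cuticular wax, had 3.69, 4.62 and 4.64 FPKM at red color break and 4.92, 6.21 and 6.17 at red maturity, and 8.21, 7.24 and 8.35, then 4.47, 4.68 and 3.65 in yellow fruit. It was called higher, by 1.17 ± 0.17 (SE, adjusted p = 7.87e-05). CD2, a regulator of cuticle formation, was not called, with a difference of -0.37 ± 0.12 (SE).

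Carotenoid synthesis up to lycopene was not called in any member, against 12.2% of all genes called. A list of 11 is too short to set 0 calls apart from that share. All 11 genes of that list had differences between -0.56 and 0.42, 10 of them below 0, with a median of -0.2056. The list median was -0.06756 with limma on log2(FPKM + 1), -0.06819 with limma on log2(FPKM + 0.1) and 0.01202 with limma on FPKM rescaled to a fixed total. By edgeR 9 of the 11 had an adjusted p under 0.05 and 9 an unadjusted p under 0.05, and DESeq2 called none either. PSY1, the phytoene synthase of ripening fruit, had 1399 ± 24.7 and 1611 ± 9.87 FPKM at color break and maturity in yellow fruit and 2638 ± 74.4 and 2779 ± 43.1 FPKM in red fruit. Its fitted stage changes were 0.18 in yellow and -0.08 in red fruit, so the higher red FPKM at maturity were not a rise in the fit. The difference was -0.27 ± 0.03 (SE, adjusted p = 9.57e-06). CRTISO, the prolycopene isomerase, differed by -0.02 ± 0.06 (SE, adjusted p = 0.848), a sign that turned under several alternatives. CYCB, the chromoplast lycopene beta-cyclase, differed by -0.20 ± 0.08 (SE, adjusted p = 0.0551), a value of -0.06 with limma on log2(FPKM + 1) and 0.01 with limma on FPKM rescaled to a fixed total. In the later carotenoid steps 2 of 9 tested genes were called, both lower (22.2% against 9.23% of all genes). Violaxanthin de-epoxidase VDE fell in red fruit, from 16.6 ± 0.543 to 4.69 ± 0.553 FPKM, and had 19.6 ± 0.244 and 16.4 ± 0.521 FPKM in yellow fruit, a difference of -1.70 ± 0.10 (SE, adjusted p = 2e-08). NCED1, the 9-cis-epoxycarotenoid dioxygenase of abscisic acid synthesis, fell from 37.5 ± 1.21 to 14.8 ± 1.35 FPKM in red fruit against 11.4 ± 0.346 and 11.2 ± 0.270 in yellow, a difference of -1.46 ± 0.08 (SE, adjusted p = 4.61e-09).

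None of the 13 ripening regulators was called by edgeR, against 12.2% of all genes. A list of 13 is too short to set 0 calls apart from that share. By edgeR 5 of the 13 had an adjusted p under 0.05 and 6 an unadjusted p under 0.05 with smaller values, and DESeq2 called none either. RIN, the MADS-box factor whose loss blocks ripening, had 237, 242 and 233, then 239.6, 235 and 243 FPKM at yellow color break and maturity and 239.8, 236 and 229, then 264, 293 and 266 FPKM in red fruit. Its groups were close to each other and the difference was 0.07 ± 0.05 (SE, adjusted p = 0.285). NOR, a NAC factor of ripening, differed by 0.08 ± 0.05 (SE), CNR, the SPL factor of the Colorless non-ripening locus, by 0.05 ± 0.05, and FUL1, a MADS-box partner of RIN, by 0.14 ± 0.05. The count is also 0 without replicate 1 of red maturity.

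Of 21 tested ethylene genes, of 22 in the table, 5 were called lower (23.8% against 9.23% of all genes) and none higher, with and without replicate 1 of red maturity, and the list median was -0.07299. None of the 3 tested ACC synthases was called. ACS2 had 304 ± 8.48 and 433 ± 31.4 FPKM at red color break and maturity and a difference of 0.31 ± 0.06 (SE), and ACS4 had a difference of -0.21 ± 0.05, which was -0.08 with limma on log2(FPKM + 1) and 0.00 with limma on FPKM rescaled to a fixed total. Of the 4 tested ACC oxidases, the enzymes of the last step, 3 were called lower, and ACO4 was not called (-0.55 ± 0.11, SE). ACO1 had 855, 818 and 836 FPKM at red color break and 271, 278 and 263 at red maturity, while yellow fruit had 714, 693 and 706, then 760.1, 755 and 772 FPKM. Red maturity was below each of the other 9 libraries, and the difference was -1.88 ± 0.04 (SE, adjusted p = 2.03e-12).

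ACO6 fell in both lines and further in red fruit, from 104 ± 3.47 to 2.31 ± 0.683 FPKM against 23.8 ± 0.208 to 5.92 ± 0.235 in yellow, a difference of -3.62 ± 0.17 (SE, adjusted p = 1.03e-09). ACO5 fell from 25.5 ± 1.70 to 5.14 ± 0.312 FPKM in red fruit and had 4.16 ± 0.284 and 6.44 ± 0.225 FPKM in yellow, a difference of -3.08 ± 0.11 (SE, adjusted p = 8.49e-11). None of the 6 tested ethylene receptors was called. ETR5 had the largest value among them, 0.78 ± 0.12 (SE), and the receptor NR of the Never-ripe mutant had 0.08 ± 0.05. EIL2, an EIN3-like factor that carries the signal to target genes, fell in red fruit from 50.5 ± 1.56 to 19.8 ± 2.01 FPKM and had 36.4 ± 0.901 and 33.8 ± 1.13 FPKM in yellow, a difference of -1.38 ± 0.08 (SE, adjusted p = 1.63e-08). The other EIN3-like genes, EIL1, EIL3 and EIL4, had differences of 0.20 ± 0.10, 0.22 ± 0.10 and -0.07 ± 0.07 (SE). Of the ethylene-responsive ripening genes, E4 fell in red fruit, with 3346, 3189.5 and 3224 FPKM at color break and 1191, 948 and 917 at maturity, and had 2932, 3359 and 3031, then 2489.9, 2320.5 and 2469 FPKM in yellow fruit. Its difference was -1.45 ± 0.12 (SE, adjusted p = 4.33e-07). E8 was not called, with -0.36 ± 0.04 (SE).

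Of 7 tested fruit-softening genes 3 were called lower (42.9% against 9.23% of all genes) and none higher. PG2A, the fruit polygalacturonase that cuts pectin (chromosome 10, 61686894 to 61693945 in the deposited coordinates, whose genome build is not given in the sources used here), was among the most abundant transcripts at color break in both lines. In yellow fruit PG2A had 4508, 4325 and 4551 FPKM at color break and 5628, 5650.0 and 5542 at maturity. In red fruit it had 4573, 4432 and 4248 FPKM at color break and 627, 588 and 558 at maturity. The color-break ranges of the lines overlapped, and the lines separated at maturity only, with a difference of -3.37 ± 0.06 (SE, adjusted p = 1.61e-13), a 10.3-fold ratio of the stage changes. The pectate lyase PL, which softens fruit pectin too, had 1675 ± 58.5 FPKM at yellow maturity and 1861 ± 156 at red maturity and was not called (0.12 ± 0.06, SE). EXP1, the fruit expansin, and TBG4, a beta-galactosidase, were not called either, with 0.13 ± 0.04 and -0.28 ± 0.05.

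MAN4, a mannanase, fell in both lines, to 3.91 ± 0.436 FPKM at yellow and 0.253 ± 0.139 at red maturity, and differed by -2.73 ± 0.26 (SE, adjusted p = 1.43e-06). CEL1, an endoglucanase, fell in both lines as well and differed by -1.71 ± 0.17 (SE, adjusted p = 3.07e-06), whereas the endoglucanase CEL2 was not called (0.88 ± 0.05, SE). Of 15 tested genes in the list of pectin-modifying enzymes 1 was called higher (6.67%) and 6 lower (40%). Of 31 tested xyloglucan, expansin and cellulose genes 3 were higher (9.68%) and 10 lower (32.3%), and 2 of the 31 reached 1 FPKM in 1 group alone. Over all genes 3.00% were higher and 9.23% lower. The medians of the 2 lists were -0.1992 and -0.1425. Other members of these families may share reads with near-identical copies. The pectate lyase Solyc09g091430 fell from 50.2 ± 1.56 to 1.55 ± 0.239 FPKM in red fruit and from 13.7 ± 0.660 to 5.59 ± 0.403 in yellow, a difference of -3.87 ± 0.12 (SE, adjusted p = 3.94e-11). A second pectate lyase, Solyc02g093580, had 0 counts in all red maturity libraries and 1.07, 1.53 and 1.68 FPKM at red color break, so that its stage change was at least 63.6-fold lower in red fruit, taking 3 counts in that group as the lower limit. The pectin acetylesterase Solyc01g102350 rose in yellow fruit, from 1.66 ± 0.187 to 9.77 ± 0.883 FPKM, and was not called in red, with 4.08 ± 0.362 and 3.01 ± 0.214, a difference of -3.14 ± 0.14 (SE, adjusted p = 1.03e-09).

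Of the xyloglucan endotransglucosylases, which cut and rejoin wall xyloglucan, XTH1 and Solyc12g098610 were called lower, at -4.21 ± 0.26 and -4.12 ± 0.17 (SE). Solyc03g093130 was called higher, by 2.02 ± 0.33, at group means under 2 FPKM. It reached 1 FPKM at yellow color break alone, with 2.06, 1.86 and 1.58 FPKM. Its stage changes were -0.00 in red and -2.02 in yellow fruit. The endoglucanase Solyc04g081300 was called lower, at -1.97 ± 0.15. Among 5 chitinases and glucanases, which act on fungal walls and callose, CHI3 was lower, at -3.15 ± 0.16, and CHI17 higher, at 1.29 ± 0.07. CHI17 had stage changes of 0.53 in red and -0.76 in yellow, each under the minimum size of a call. The glucanase Solyc01g059965 rose in yellow fruit from 0.0407, 0.113 and 0.205 to 5.97, 6.25 and 5.52 FPKM and had 3.23, 3.15 and 3.78, then 6.19, 5.49 and 5.63 in red, a difference of -4.92 ± 0.33. Without replicate 3 of yellow color break this value was -5.58.

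**Figure D2:**
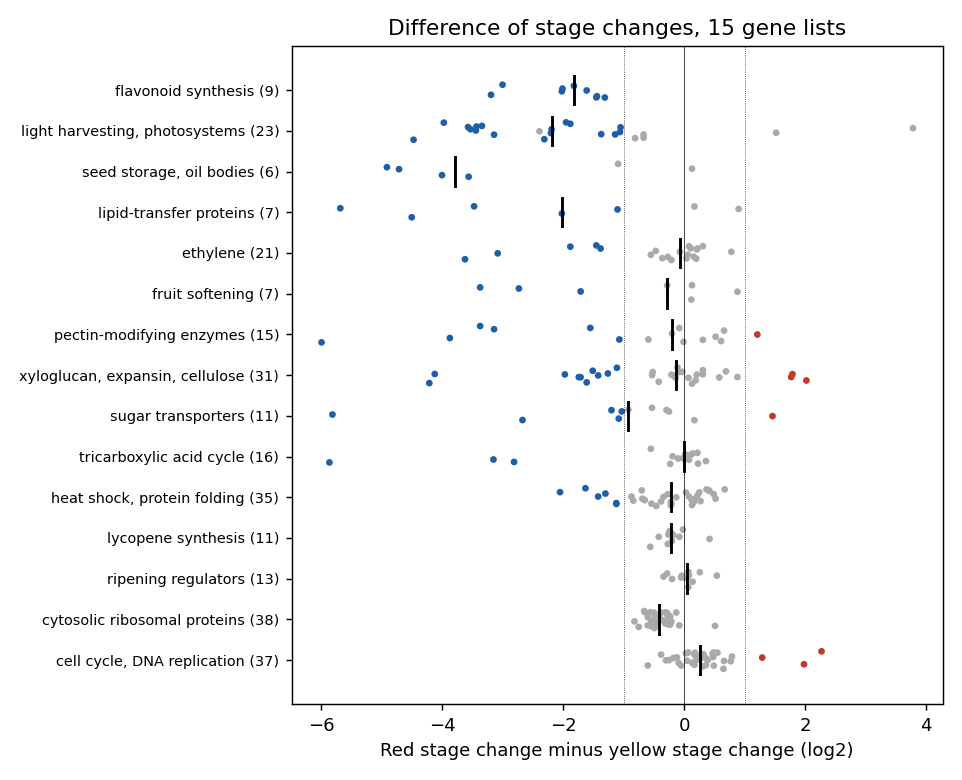
Difference of stage changes (red minus yellow, log2) of each tested member of 15 gene lists; each point is 1 gene, blue where called lower, red where called higher and grey where not called, with the black bar at the list median, the dotted lines at -1 and 1, and genes at 0 in all red maturity libraries drawn at their bound. All 9 flavonoid genes are blue, the lycopene, regulator and ribosomal lists are grey throughout, and the grey photosystem gene farthest to the right, Ycf4, is listed at 0 in all yellow libraries and drawn at its fitted value.

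Of 5 tested aroma genes 2 were called lower (40% against 9.23% of all genes), both lipoxygenases, which act on fatty acids. LOXA, described as linoleate 9S-lipoxygenase A, and LOXD were called lower, at -2.19 ± 0.09 and -1.89 ± 0.18 (SE). LOXC, the lipoxygenase of fruit C6 and C5 volatiles, had 841, 839 and 846, then 588, 606 and 582 FPKM in yellow fruit and 197, 192 and 191, then 271, 266 and 276 in red fruit. Its stage changes of 0.33 in red and -0.53 in yellow, and their difference of 0.86 ± 0.04 (SE, adjusted p = 1.3e-09), were under the minimum size of a call. With limma its value was 0.99 on log2(FPKM + 1), not called, and 1.08 on FPKM rescaled to a fixed total, called higher. HPL, the hydroperoxide lyase after it, differed by -0.26 ± 0.10. A further lipoxygenase, Solyc01g099180, was called higher by 2.52 ± 0.64 (SE, adjusted p = 0.00548), but 1 library carried much of its yellow color-break mean: the values were 4.03, 3.50 and 17.7 FPKM there, and without replicate 3 the difference was 1.36.

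TIV1, the vacuolar invertase that splits sucrose, was not called in red fruit, with 1163, 1189 and 1224 FPKM at color break and 1137, 1294 and 1303 at maturity. In yellow fruit TIV1 fell from 2293, 2284 and 2409 to 831, 835 and 848 FPKM. The yellow line was the higher of the 2 at color break and the lower at maturity, without overlap, and the difference was 1.40 ± 0.06 (SE, adjusted p = 2.61e-10). INVINH1, an invertase inhibitor, fell in red fruit from 61.5 ± 3.08 to 20.2 ± 2.64 FPKM, had 68.4 ± 4.56 and 55.4 ± 3.69 in yellow and differed by -1.44 ± 0.12 (SE, adjusted p = 5.72e-07). SUS1, a sucrose synthase, differed by -1.87 ± 0.07 (SE, adjusted p = 1.67e-10).

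Of 11 tested sugar transporters, 1 was called higher (9.09% against 3.00% of all genes) and 5 lower (45.5% against 9.23%; 4 lower without replicate 1 of red maturity, 3 without replicate 1 of yellow maturity). The SWEET transporter Solyc05g024260, the most abundant of those named, rose in red fruit from 43.6, 46.2 and 43.0 to 178, 203 and 186 FPKM and had 80.7, 83.6 and 79.7, then 118, 115 and 112 in yellow, a difference of 1.46 ± 0.06 (SE, adjusted p = 5.68e-10). The other SWEET genes that were called, Solyc12g055870, Solyc09g074530 and Solyc04g064630, were lower, at -5.81, -2.67 and -1.20, at group means under 7 FPKM. Solyc12g055870 had 3 counts in red maturity replicate 1 and 0 in the other 2, without which its stage change was at least 39.7-fold lower in red. The value of Solyc09g074530 ran from -3.41 without red maturity replicate 2 to -2.08 without red maturity replicate 3. The trehalose 6-phosphate phosphatase Solyc04g072920 had 2.71 ± 0.0865 and 5.51 ± 0.499 FPKM in yellow fruit and 2.95 ± 0.294 and 1.91 ± 0.223 in red, a difference of -1.79 ± 0.15 (SE, adjusted p = 5.05e-07). GAME11, a steroid hydroxylase of glycoalkaloid synthesis and the one tested member of 7 of that list, fell in both lines and differed by -2.89 ± 0.30 (SE, adjusted p = 3.46e-06).

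Of 23 tested genes for light harvesting and photosystems, of 35 in the table, 17 fell and 2 rose in red fruit (against 11.5% and 3.93% of all genes). In yellow fruit 10 of the 23 fell and none rose (against 4.88% and 1.47%). In the difference 17 were called lower, 6 were not called and none was higher, with 9.23% of all genes called lower, and the median difference was -2.194. Among the tested 2 reached 1 FPKM in 1 group alone: the antenna gene Solyc05g056070, called lower, at red color break, and Ycf4, Solyc04g039810, not called, at red maturity. Those that rose in red fruit were Ycf4 and psbZ. Red stage changes had a median of -3.339 and yellow ones of -0.5927. Without replicate 1 of red maturity 19 were lower and 1 higher. PSBR, a 10 kDa subunit of photosystem II and the most abundant member, had 596, 610.5 and 638 FPKM at red color break and 131, 83.9 and 82.7 at red maturity. In yellow fruit it had 456, 467 and 426, then 307, 292 and 309 FPKM. Red fruit was the higher line at color break and the lower at maturity, and the difference was -2.19 ± 0.19 (SE, adjusted p = 7.63e-07). PSBO, which stabilises the oxygen-evolving manganese cluster, had 58.5, 62.9 and 60.1, then 6.59, 4.42 and 3.42 FPKM in red fruit against 27.9, 28.9 and 29.7, then 24.1, 25.6 and 22.8 in yellow, a difference of -3.53 ± 0.21 (SE, adjusted p = 1.49e-08). The antenna gene Solyc10g006230 fell in both lines, to 2.2 ± 0.363 FPKM at yellow and 0.471 ± 0.195 at red maturity, and differed by -3.57 ± 0.23 (SE).

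The antenna genes Solyc03g005760 and Solyc05g056070 differed by -3.97 ± 0.36 and -4.47 ± 0.85, the latter from counts of 3, 0 and 27 at red maturity. Without the library with 27 counts, replicate 3, its value was -7.07. psaD, a photosystem I subunit, differed by -1.95 ± 0.20. Of 61 tested genes annotated to photosynthesis, 27 were lower (44.3% against 9.23% of all genes) and 6 higher (9.84% against 3.00%). In red fruit 30 fell and 9 rose (against 11.5% and 3.93% of all genes), and 10 of the 61 reached 1 FPKM in 1 group alone. Of 113 tested genes annotated to the chloroplast thylakoid membrane, 46 were lower (40.7%) and 7 higher (6.19%), and 10 of the 113 reached 1 FPKM in 1 group alone. The 35 photosynthesis genes, used also as markers of green tissue, summed to 753 to 809 FPKM at yellow color break, 521 to 532 at yellow maturity, 1069.7 to 1106 at red color break and 181 to 255 at red maturity. At red maturity replicate 1 had the highest sum, 255 FPKM against 190.4 and 181. Of the 35, 6 to 8 were at 0 in each red maturity library and 9 to 10 in each yellow maturity library. The part of green tissue in these differences was not tested.

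Of 6 tested seed and oil-body genes, of 7 in the table, 5 fell in both lines. Over all genes 11.5% fell in red and 4.88% in yellow fruit. In the difference 4 of the 6 were called lower (66.7% against 9.23% of all genes). The median difference was -3.782. Without replicate 1 of red maturity 5 were lower with a median of -5.895. The oleosin Solyc12g010920, a coat protein of seed oil bodies, had 349, 356 and 359.9 FPKM at red color break and 6.76, 0.375 and 0.590 at red maturity, and 188, 201 and 179, then 36.9, 37.7 and 37.0 FPKM in yellow fruit. Its level at red maturity came mostly from replicate 1. The difference was -4.91 ± 0.58 (SE, adjusted p = 1.14e-05), and -7.28 without that library. The oleosin Solyc06g034040 had 5.44, 0 and 0 FPKM at red maturity and differed by -4.71 ± 0.67 (SE, adjusted p = 6.31e-05), and without replicate 1 the stage change was at least 845-fold lower in red. The oleosin Solyc06g060840 differed by -4.0 ± 0.20 (SE, adjusted p = 2.7e-09) and the late embryogenesis abundant gene Solyc03g116390 by -3.56 ± 0.36 (SE, adjusted p = 3.16e-06), which became -4.51 without replicate 1.

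The oleosin Solyc02g086490 was called lower only without replicate 1 of red maturity: it had 1.66, 0 and 0 FPKM there and a difference of -1.09 ± 0.89 (SE, adjusted p = 0.337) with all libraries, and with the other 2 its stage change was at least 34.5-fold lower in red. One further late embryogenesis gene, Solyc01g095150, was not called, with 134 ± 1.22 FPKM at red color break and 180.2 ± 5.96 at red maturity (0.13 ± 0.06, SE). The 7 seed markers, this one included, summed to 649 to 704 FPKM at yellow color break, 246 to 261 at yellow maturity, 1008 to 1065 at red color break and 179.8 to 209 at red maturity, where 2 of the 7 were at 0 in replicates 2 and 3 and none in replicate 1. Most of the sum at red maturity was that of Solyc01g095150, so the sum understates the fall of the other members in red fruit. Of 13 tested genes annotated to lipid storage 7 were lower (53.8% against 9.23% of all genes) and none higher, with a median of -3.452. The part of seed tissue in these differences was not tested.

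Lipid-transfer proteins are small carriers of lipids to the cell surface that are abundant in epidermis and seed coats. They gave 5 lower (71.4% against 9.23% of all genes) and no higher calls among 7 tested, with and without replicate 1 of red maturity. Solyc01g081600 had 8.27, 5.28 and 8.88 FPKM at red color break and 0 counts in every red maturity library, against 16.2, 21.7 and 15.7, then 4.87, 4.20 and 4.23 in yellow fruit, a stage change at least 51.2-fold lower in red. Solyc01g090350 and its neighbour Solyc01g090360, which may share reads, had 14.6, 0 and 0 and 12.4, 0.147 and 0.375 FPKM at red maturity and means of 836 ± 20.7 and 653 ± 30.2 FPKM at red color break. They differed by -4.50 ± 0.91 and -3.47 ± 0.72 (SE). Without replicate 1 the first was at least 2770-fold lower in red and the second had -7.41. Solyc10g075100 differed by -2.02 ± 0.41, and by -2.80 without replicate 1.

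**Figure D3:**
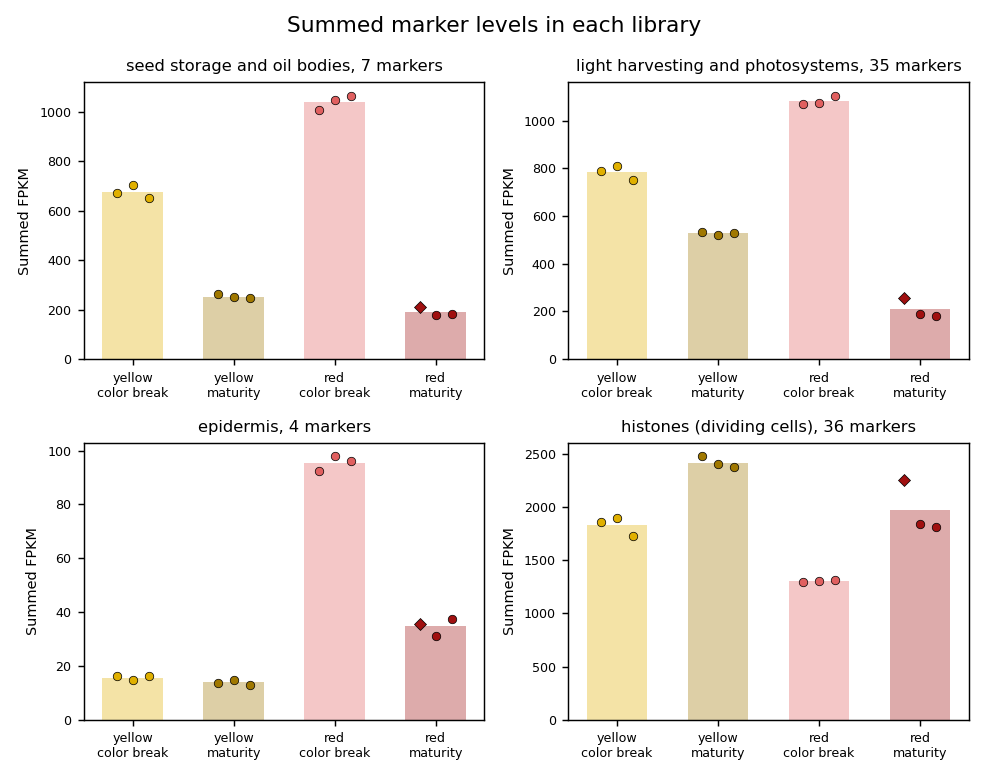
Summed FPKM of 4 marker lists in each library (vertical axes, FPKM); bars are group means, circles are libraries and the diamond is replicate 1 of red maturity. Seed and photosynthesis sums are higher in red than in yellow fruit at color break and lower at maturity, and the diamond lies above both circles of its group in these 2 panels and in the histone panel. Most of the seed sum at red maturity is that of Solyc01g095150.

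Of 16 tested genes of the tricarboxylic acid cycle 3 were lower (18.8% against 9.23% of all genes) and none higher, with a list median of -0.006129. Of 41 tested genes annotated to that cycle 9 were lower (22%) and none higher, with a median of -0.2303. The citrate synthase Solyc07g055840 fell from 42.9, 41.3 and 41.2 to 1.78, 1.54 and 1.48 FPKM in red fruit and from 20.3, 19.2 and 21.5 to 6.32, 5.79 and 6.75 in yellow, a difference of -3.15 ± 0.11 (SE, adjusted p = 7.08e-11). The malate dehydrogenase Solyc11g007990 differed by -2.81 ± 0.11 (SE). The succinate dehydrogenase subunit Solyc04g055030 had 7, 0 and 0 counts at red maturity and differed by -5.86 ± 0.49, a stage change at least 91.4-fold lower in red without replicate 1. Of 35 tested heat shock and folding genes 6 were lower (17.1% against 9.23% of all genes) and none higher, while of 128 tested genes annotated to protein folding 10 were lower (7.81%) and none higher. Solyc07g040680, heat stress transcription factor A-9, which acts in seed maturation in sunflower and Arabidopsis, fell in both lines, from 85.5 ± 3.93 to 14.1 ± 1.39 FPKM in red and from 53.6 ± 0.993 to 21.5 ± 1.18 in yellow, a difference of -1.42 ± 0.09 (SE, adjusted p = 3.32e-08). The small heat shock genes Solyc12g042830 and Solyc04g014480 differed by -2.05 ± 0.10 and -1.63 ± 0.20, and the chaperone Solyc09g075950 by -1.30 ± 0.06. Cytosolic ribosomal proteins were not called by edgeR or DESeq2 in any of 38 tested members, against 12.2% of all genes called by edgeR. Of the 38, 37 lay below 0, and by edgeR 30 had an adjusted p under 0.05 and 32 an unadjusted p under 0.05. The median was -0.4222. Without replicate 1 of red maturity 1 of them was called lower.

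Of 37 tested cell-cycle and DNA replication genes 3 were higher (8.11% against 3.00% of all genes) and none lower, with a median of 0.2644. Of 54 tested genes annotated to DNA replication none was higher and 1 was lower (1.85% against 9.23% of all genes). Of 115 annotated to DNA repair 1 was higher (0.87%) and 2 were lower (1.74%). Solyc04g078500, cyclin-J18, rose in red fruit from 0.927, 1.38 and 1.52 to 7.25, 7.12 and 6.64 FPKM and had 2.84, 2.85 and 2.67, then 2.95, 3.26 and 2.45 in yellow, a difference of 2.27 ± 0.26 (SE, adjusted p = 8.81e-06). Cyclin-D1-1, Solyc05g006050, and DNA topoisomerase 2, Solyc01g087500, were higher by 1.98 ± 0.54 and 1.29 ± 0.38 (SE) at group means under 2 FPKM, and Solyc05g006050 reached 1 FPKM at red maturity alone. Of 34 tested histones 1 was higher, 2.94% against 3.00% of all genes. The linker histone H1 gene Solyc09g066100 rose in red fruit from 37.4, 39.4 and 37.0 to 118, 137 and 129 FPKM, with 58.1, 58.8 and 57.7, then 70.8, 71.9 and 72.3 in yellow and a difference of 1.32 ± 0.06 (SE, adjusted p = 1.17e-09). All histones together, the markers of dividing cells, summed to 1295 to 1316 FPKM at red color break and 1815 to 2251 at red maturity, with the highest sum in replicate 1, and to 1730.2 to 1895 and 2371 to 2476 FPKM in yellow fruit.

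Auxin genes gave 3 higher calls (10.3% against 3.00% of all genes) and 2 lower calls (6.9% against 9.23%) among 29 tested, with a median of 0.172, and without replicate 1 of red maturity 3 were lower. Of the 29, 1 reached 1 FPKM in 1 group alone. The auxin-responsive gene Solyc09g064530 and the auxin response factor Solyc07g016180 were higher by 1.58 ± 0.14 and 1.23 ± 0.26 (SE). The efflux carrier Solyc05g008060 and SAUR76, Solyc07g042490, were lower, at -2.60 ± 0.11 and -1.23 ± 0.07. Of 6 tested ethylene-responsive factors 1 was called higher (16.7% against 3.00% of all genes) and 1 lower (16.7% against 9.23%). Ethylene response factor 1, Solyc06g065820, was higher by 3.03 ± 0.30 (SE, adjusted p = 2.58e-06), with 0.271, 0.256 and 0.423 FPKM at red color break and 2.41, 3.22 and 3.03 at red maturity. Ethylene responsive factor 2, Solyc09g075420, was lower, at -1.45 ± 0.06 (SE, adjusted p = 3.24e-10), with 326 ± 7.55 and 233 ± 11.8 FPKM in red and 239 ± 4.95 and 424 ± 3.17 in yellow fruit.

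**Figure D4:**
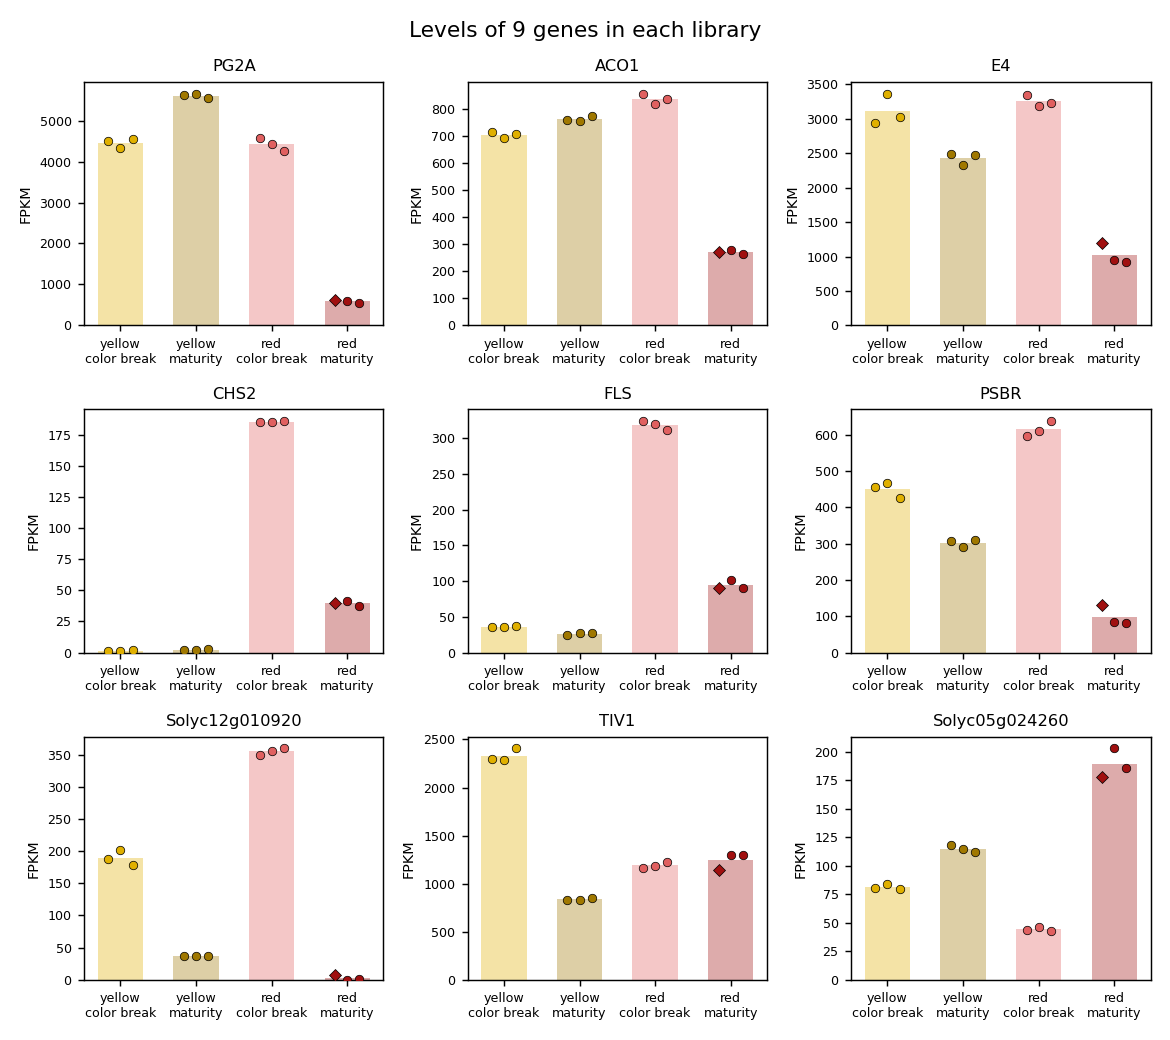
FPKM of 9 genes in each library (vertical axes, FPKM, each starting at 0); bars are group means, circles are libraries and the diamond is replicate 1 of red maturity. PG2A and ACO1 are lowest at red maturity, CHS2 and FLS are highest at red color break, and TIV1 is highest at yellow color break.

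AOS2, an allene oxide synthase, which makes the precursor of jasmonate (chromosome 11, 54723549 to 54725081), had 67.3, 70.0 and 68.2 FPKM at red color break and 6.44, 7.72 and 6.63 at red maturity. In yellow fruit AOS2 rose from 8.36, 8.33 and 8.83 to 22.6, 22.6 and 21.5 FPKM. No 2 of the 4 groups overlapped, and the difference was -4.83 ± 0.08 (SE, adjusted p = 9.55e-14). Solyc01g112080, a LysM domain protein of a family that binds chitin-like sugars, rose in yellow fruit from 1.38, 1.22 and 1.40 to 12.5, 12.9 and 12.8 FPKM and fell in red fruit from 2.11, 2.26 and 2.31 to 0.707, 1.1 and 0.908, a difference of -4.67 ± 0.18 (SE, adjusted p = 1.8e-10). Solyc01g103030, a transporter of the NRT1/PTR family, differed by -4.09 ± 0.22 (SE, adjusted p = 6.35e-09).

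The other opposite genes named here, apart from Solyc11g005150, were chosen after their values were seen. The neighbours of Solyc01g112080 had the same pattern: Solyc01g112090, a DETOXIFICATION family transporter, differed by -2.95 ± 0.13 and Solyc01g112100, a flavin-containing monooxygenase, by -3.77 ± 0.17 (SE). The last rose from 6.92 ± 0.890 to 35.4 ± 0.582 FPKM in yellow fruit and fell from 7.52 ± 0.287 to 3.11 ± 0.654 in red. Its interval lies within that of Solyc01g112090 on the other strand, and the strand setting of the counting is not given in the sources used here, so that reads of the 2 cannot be told apart. A run of 4 genes with no description on chromosome 11, from 20569848 to 20650851, rose in yellow and fell to 0 counts in replicates 2 and 3 of red maturity. The first of them, Solyc11g028167, had 8.80, 8.00 and 8.95, then 19.0, 19.4 and 20.0 FPKM in yellow fruit and 9.47, 9.90 and 8.53, then 0.445, 0 and 0 in red. The fitted differences of Solyc11g028167, Solyc11g028170, Solyc11g028175 and Solyc11g028180 were -7.24, -7.81, -7.98 and -7.44, and without replicate 1 the stage change was at least 725-fold, 500-fold, 2650-fold and 349-fold lower in red.

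Solyc10g017970 and Solyc10g017980, annotated to chitin binding, had 2181 ± 43.3 and 725 ± 14 FPKM at red color break and 495 ± 157 and 149 ± 44.7 at red maturity. In yellow fruit they rose from 117 ± 9.99 to 719.6 ± 30.2 and from 15.9 ± 3.36 to 178 ± 4.01 FPKM. Their differences were -4.90 ± 0.23 and -5.89 ± 0.25, and that of Solyc07g009530, with the same annotation, was -6.34 ± 0.43. These are short gene models that may share reads. Solyc07g009500, also annotated to chitin binding, went from 1.02 ± 0.284 to 11.7 ± 3.23 FPKM in red and from 1.36 ± 0.250 to 0.216 ± 0.0515 in yellow, a difference of 5.93 ± 0.41. WRKY75, Solyc05g015850, and ALB3, Solyc11g066110, known in Arabidopsis for inserting proteins into the thylakoid membrane, were lower, at -3.25 ± 0.44 and -2.51 ± 0.06.

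In the other direction, Solyc11g005150, a leucine-rich repeat extensin of the cell wall, rose from 2.76, 2.76 and 2.88 to 5.49, 7.10 and 6.75 FPKM in red fruit and fell from 5.40, 6.24 and 6.58 to 3.25, 2.54 and 3.07 in yellow, a difference of 2.1 ± 0.17 (SE, adjusted p = 3.31e-07). Solyc04g074490, annotated to protein binding in the cytosol, had overlapping color-break levels, 28.1, 29.3 and 28.4 FPKM in yellow and 30.2, 30.8 and 29.2 in red, and parted at maturity, 8.63, 9.29 and 9.29 against 139, 151 and 149.8. Its difference was 3.80 ± 0.06 (SE, adjusted p = 3.68e-14). Solyc04g071070, annotated as a structural wall constituent, rose from 41.6 ± 2.35 to 138 ± 17.6 FPKM in red and fell from 15.6 ± 1.21 to 6.88 ± 0.710 in yellow (2.78 ± 0.12). Solyc04g071075, on the other strand within the same interval, gave 2.79 ± 0.28 and cannot be told apart from it. Solyc05g005170, annotated to polygalacturonase activity, differed by 4.73 ± 0.23, from 0.385 ± 0.0551 to 4.46 ± 1.14 FPKM in red and from 22.3 ± 0.604 to 8.79 ± 0.708 in yellow.

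**Figure D5:**
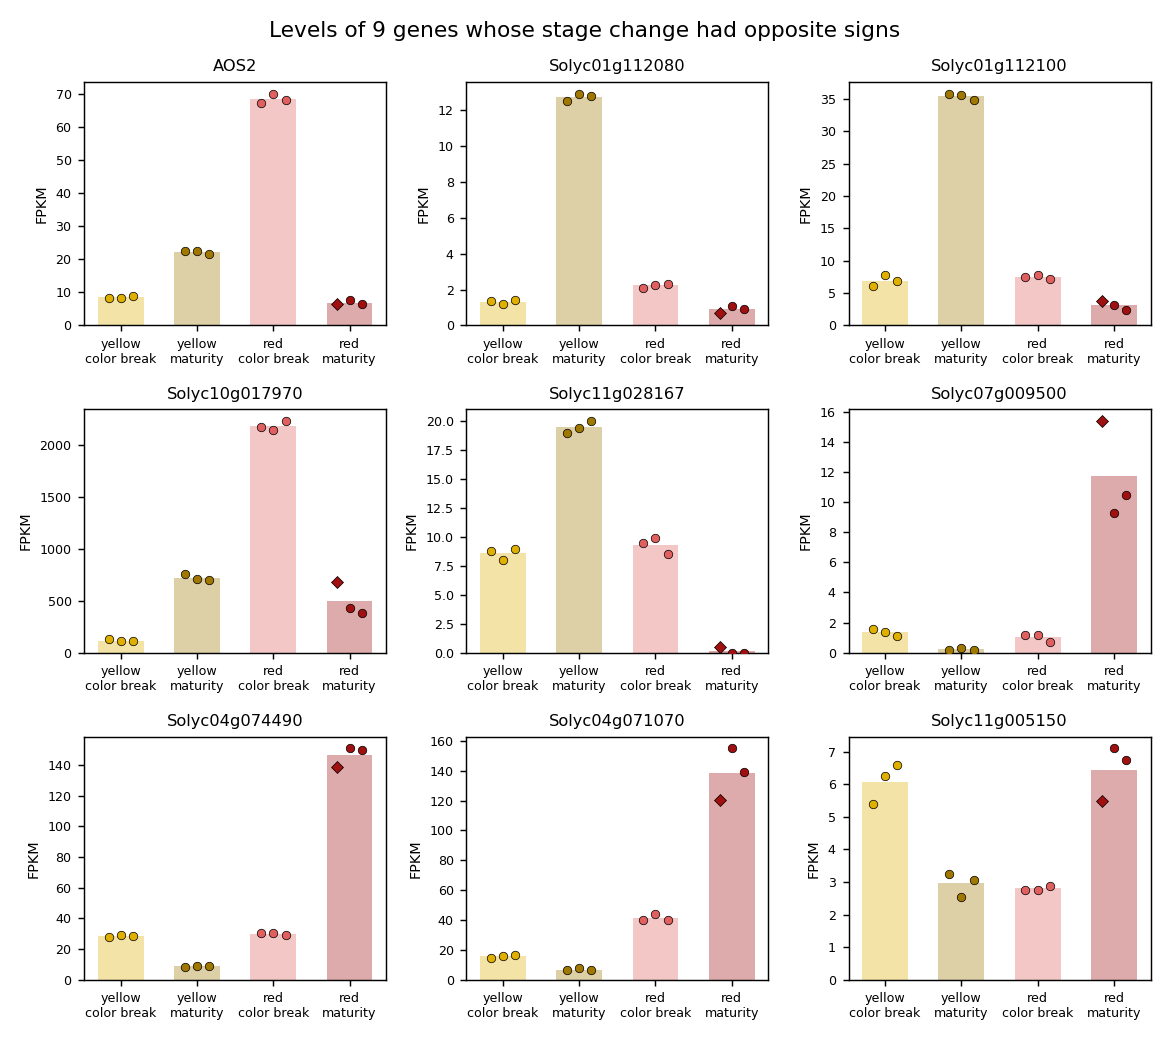
FPKM of 9 genes with opposite called stage changes (vertical axes, FPKM, each starting at 0); bars are group means, circles are libraries and the diamond is replicate 1 of red maturity. In the first 5 panels the level rises in yellow fruit and falls in red fruit, and in the last 4 it falls in yellow and rises in red.

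Chromosome 11 held 17 of the 70 (24.3%) with 6.91% of all tested genes, 10 of them up in red and 7 down, 4 of the latter in the run of neighbours. Chromosome 12 held 1. Over all called genes chromosome 11 had 4.71% of its genes higher and 9.60% lower, against 3.00% and 9.23% overall. Of the 34 opposite genes that rose in red 13 reached a group mean of 5 FPKM, and of the 36 that fell 25 did.

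Among the genes with the largest falls, Solyc06g075990, described as DSI-1VOC after an Arabidopsis gene, had 25.2, 29.7 and 29.2 FPKM at red color break and 0 counts in all red maturity libraries, against 15.9, 15.6 and 12.9, then 3.05, 3.13 and 2.67 in yellow. Its stage change was at least 197-fold lower in red. Solyc11g071810, the FAS gene, a YABBY-type factor named for the fasciated fruit locus, fell in red fruit from 7.51, 7.29 and 5.74 to 0.0645, 0.148 and 0 FPKM and had 1.35, 1.08 and 1.45, then 1.21, 1.20 and 1.51 in yellow, a difference of -6.62 ± 0.51 (SE, adjusted p = 2.16e-07). This ran from -7.57 without red maturity replicate 2 to -6.03 without red maturity replicate 3. Of 99 tested non-coding RNA entries 11 were called higher (11.1% against 3.00% of all genes) and 17 lower (17.2% against 9.23%). Of the 99, 6 reached 1 FPKM in 1 group alone. The large-subunit ribosomal RNA entry ENSRNA050030024, the one called of the entries of that name, reached 1 FPKM in 1 group alone and had 14.3, 16 and 15.8 FPKM at red maturity and at most 0.159 FPKM in the other 9 libraries, a difference of 7.00 ± 0.46 (SE). A group II intron entry, ENSRNA050030006, had 2.45, 1.14 and 1.03, then 134, 148 and 137 FPKM in red fruit, a difference of 5.31 ± 0.51. Another group II intron entry, ENSRNA050029635, was called lower, at -3.67 ± 0.85. That entry reached 1 FPKM at yellow maturity alone, with 1.26, 1.42 and 1.68 FPKM, and had counts of 3, 3 and 0 at red maturity. The small-subunit ribosomal RNA entries that were called were all lower. The gene rpl33, for a chloroplast ribosomal protein, differed by 3.44 ± 0.86, and by 5.37 without yellow maturity replicate 1. Libraries were made from RNA selected with oligo(dT), and such entries can share reads with many copies. The part of the selection step in these values was not tested.

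Of the tested genes 301 passed the filter through libraries of 1 group alone, and 177 of these 301 were called, against 12.2% of all tested genes. Passing through 1 group goes with a call, because the same high group enters the difference. By mean FPKM over all libraries, the share called lower was 25.5% under 1 FPKM, 11.1% from 1 to 10, 5.26% from 10 to 100 and 10.1% at 100 or more. The share called higher was 11.4%, 3.86%, 1.32% and 1.68% in the same order. Over all genes 9.23% were lower and 3.00% higher. With limma on log2(FPKM + 1), a scale that understates changes of low genes, the values of MAN4 (-0.73), CEL1 (-0.47), LOXD (-0.85), Solyc02g093580 (-0.89), Solyc04g064630 (-0.86), Solyc09g074530 (-0.49), Solyc05g006050 (0.99), Solyc01g087500 (0.70) and Solyc07g016180 (0.61) stayed under the size of a call. Solyc07g016180 was also not called without yellow color break replicate 3, and the oleosin Solyc06g034040 was not called by DESeq2 (adjusted p = 0.0817). DESeq2 gave no adjusted p for Solyc01g090350, Solyc01g090360, Solyc12g010920 and Solyc11g028175. At the edge of the rule, 212 called genes had a size between 1 and 1.1, and 233 genes with an adjusted p under 0.05 had a size of 0.9 to 1 and were not called.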

How the data were processed

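RNA was sequenced from fruit of both lines at both stages, with oligo(dT) selection and stranded paired-end libraries per the labels' protocols. The deposited table gives raw counts and FPKM per gene and library. The submitters' processing notes name edgeR and DESeq2, StringTie 2.1.6, HISAT2 2.2.1 and cutadapt 1.9. For genome build, annotation and strand setting, nothing is given in the sources used here. The counts deposited by the authors were tested with the quasi-likelihood test of edgeR 4.0.16 (R 4.3.3), with TMM scaling and 1 mean per group over all 12 libraries. The contrast was red maturity minus red color break, minus the same in yellow. Benjamini-Hochberg adjustment ran over the 15974 genes that passed the filter on the authors' FPKM, and SE is the size of the log2 value divided by the square root of the F statistic. FPKM deposited by the authors are printed as levels. They were not rescaled by TMM, so a change read from them can differ from the fitted change, as for PSY1 in red fruit.

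Alternatives were other scalings, DESeq2 1.42.0, limma 3.58.1 on log2(FPKM + pseudocount) with pseudocounts of 1 and 0.1, other filters, a replicate block and leaving out each library. In simulated counts of 15974 genes the test recovered 99% of 100 genes changed by 1.5 on the log2 scale and 98% of 100 changed by 2. There were 12 false calls among the genes left unchanged. The simulation used 1 common spread for all genes and libraries and changed no genes with low counts. It did not include the wider spread of the red maturity libraries, so its rates cannot be carried over to these data. No pairing by replicate number was seen: of 18 pairs of libraries with the same number, 0 had a correlation of deviations over 0.1. Low correlations do not show that the samples were unpaired. A gene at 0 in a group was set to 3 counts over that group for a bound. Intervals of counting error apart from the replicate spread were not computed.

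Genes were named by rule: in each pattern the 3 annotated genes with the largest difference that reached 5 FPKM and had the same call without red maturity replicate 1, up to 4 called members of each list, and a set of ripening genes. Further genes were chosen after their values were seen. Lists matched by words of a description, and the naming of annotated genes, left out most called genes, which had no symbol or description. The members and gene lists were chosen with earlier results of these data known, and 24 lists by GO term were added after the results of the other lists were seen. Sequences were not used here.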

Additional observations from a re-analysis of the deposited data

Results flagged for a closer look

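What drew attention to each result below is that the stage change of 1 line differed from that of the other by the test of the difference itself, with an adjusted p under 0.05 (edgeR quasi-likelihood test) and a size of at least 1 on the log2 scale. This held for 1954 genes in all. Values in parentheses are the difference of stage changes, red minus yellow, on the log2 scale.

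Lower values in color, ethylene and wall genes were those of PAL5 (-1.82), CHS1 (-3.19), CHS2 (-3.00), CHI (-2.01), F3H (-2.02), FLS (-1.44) and MYB12 (-1.31) in the flavonoid pathway. In later carotenoid steps they were those of VDE (-1.70) and NCED1 (-1.46). Ethylene genes with lower values were ACO1 (-1.88), ACO5 (-3.08), ACO6 (-3.62), EIL2 (-1.38) and E4 (-1.45). Wall genes with lower values were PG2A (-3.37), MAN4 (-2.73), CEL1 (-1.71), Solyc09g091430 (-3.87), Solyc01g102350 (-3.14), XTH1 (-4.21), Solyc12g098610 (-4.12) and Solyc04g081300 (-1.97). The pectate lyase Solyc02g093580 had a bound of -5.99. The wall gene Solyc03g093130, which reached 1 FPKM at yellow color break alone, was higher (2.02). The chitinases and glucanases were CHI3 (-3.15), CHI17 (1.29) and Solyc01g059965 (-4.92).

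In lipid, sugar and alkaloid metabolism the genes were LOXA (-2.19), LOXD (-1.89), Solyc01g099180 (2.52), SUS1 (-1.87), INVINH1 (-1.44), TIV1 (1.40), GAME11 (-2.89) and Solyc04g072920 (-1.79). The SWEET transporters were Solyc05g024260 (1.46), Solyc12g055870 (-5.81), Solyc09g074530 (-2.67) and Solyc04g064630 (-1.20). The wax gene CER6 was higher (1.17). In photosynthesis the genes were PSBO (-3.53), PSBR (-2.19), psaD (-1.95), Solyc05g056070 (-4.47), Solyc03g005760 (-3.97) and Solyc10g006230 (-3.57). In seed and oil-body genes they were Solyc12g010920 (-4.91), Solyc06g034040 (-4.71), Solyc06g060840 (-4.0) and Solyc03g116390 (-3.56). The lipid-transfer genes were Solyc01g090350 (-4.50), Solyc01g090360 (-3.47) and Solyc10g075100 (-2.02), with a bound of -5.68 for Solyc01g081600. Respiration genes were Solyc04g055030 (-5.86), Solyc07g055840 (-3.15) and Solyc11g007990 (-2.81). Heat shock genes were Solyc12g042830 (-2.05), Solyc04g014480 (-1.63), Solyc07g040680 (-1.42) and Solyc09g075950 (-1.30).

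In cell cycle and chromatin the values were those of Solyc04g078500 (2.27), Solyc05g006050 (1.98), Solyc01g087500 (1.29) and Solyc09g066100 (1.32). Hormone response genes were Solyc05g008060 (-2.60), Solyc09g064530 (1.58), Solyc07g042490 (-1.23), Solyc07g016180 (1.23), Solyc06g065820 (3.03) and Solyc09g075420 (-1.45). Genes with opposite called changes, lower in red, were AOS2 (-4.83), Solyc01g112080 (-4.67), Solyc01g112090 (-2.95), Solyc01g112100 (-3.77), Solyc01g103030 (-4.09), Solyc05g015850 (-3.25), Solyc07g009530 (-6.34), Solyc10g017970 (-4.90), Solyc10g017980 (-5.89), Solyc11g028167 (-7.24), Solyc11g028170 (-7.81), Solyc11g028175 (-7.98), Solyc11g028180 (-7.44) and Solyc11g066110 (-2.51), CHS1 aside. Those higher in red were Solyc11g005150 (2.1), Solyc04g074490 (3.80), Solyc04g071070 (2.78), Solyc04g071075 (2.79), Solyc05g005170 (4.73) and Solyc07g009500 (5.93). The remaining genes were Solyc11g071810 (-6.62), Solyc06g075990 with a bound of -7.62, the large-subunit ribosomal RNA entry LSU_rRNA_eukarya (7.00), the group II intron entry (5.31) and rpl33 (3.44).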

How the results depend on the processing

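Of the 140 genes compared under the alternatives, CRTISO, ACS4 and CYCB changed sign and the others kept their direction where tested. Some uncalled list members named above were outside these 140, and their direction under the alternatives was not compared. The counts of calls moved more. With limma on log2(FPKM + 1), 827 genes were called lower and 1205 in all; the patterns held 741 genes with a larger change and lower value in red, 56 with a smaller change and higher value, 11 opposite and up in red and 16 opposite and down. With an FPKM minimum of 5, which tests fewer genes, 228 were higher, 833 lower and 1061 called in all; the larger changes were 173 up and 762 down, the smaller changes 42 up and 48 down, and the opposite ones 13 up and 23 down. With limma on FPKM rescaled to a fixed total, chosen after seeing the data, 947 were lower, 845 of them with a larger change in red, and the opposite genes were 19 up and 19 down. With the adjusted p alone, also chosen after seeing the data, 7457 genes passed. The sign of CRTISO turned to 0.12 with limma at pseudocounts of 1 and 0.1, to 0.20 with limma on rescaled FPKM, and to 0.01, 0.00 and 0.02 without red color break replicate 1, yellow maturity replicate 1 and red maturity replicate 3, in a range of -0.04 to 0.02 over all single libraries left out. With limma on rescaled FPKM, ACS4 was 0.00 and CYCB 0.01. The cause was not tested. Leaving out 1 library at a time gave 463 to 495 higher, 1411 to 1595 lower and 1885 to 2085 called in all; larger changes of 329 to 357 up and 1283 to 1450 down, smaller changes of 96 to 117 up and 92 to 112 down, and opposite ones of 29 to 34 up and 32 to 38 down.

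A replicate block gave 481 higher, 1470 lower and 1951 called genes, with patterns of 349, 1336, 99, 99, 33 and 35 genes in the order of larger up and down, smaller up and down and opposite up and down. The shared numbers were no pairing: correlations of deviations ran from -0.1 to 0.0855, and 1 of 12 libraries correlated best with its own number. Depth limits the genes at 0 in red maturity, whose values are bounds, and DESeq2 gave no adjusted p for 67 tested genes.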
